A study of Mus musculus with 5 samples.

Results

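The genes described here encode the nuclear subunits of the 5 oxidative phosphorylation complexes, read by single-cell RNA sequencing in mouse tumours. They were taken by symbol: Ndufa, Ndufb, Ndufc, Ndufs or Ndufv followed by a number for complex I, Sdha to Sdhd for complex II, Uqcr for complex III, Cox4 to Cox8 for complex IV and Atp5 for complex V. Of 85 genes matching these names, Ndufb1-ps was left out for its name and Cox7b2, Cox8b and Cox8c for having under 20 UMIs (unique molecular identifiers, each a counted RNA molecule) in the whole series. This left 81 of 32285 genes, of which 37 were named for complex I, 4 for complex II, 8 for complex III, 15 for complex IV and 17 for complex V. Cox7b2, just under the limit, had 9 UMIs, and the members just over it, Ndufa4l2 and Cox4i2, had 107 and 350.

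The tumours were Renca, a mouse renal cortical adenocarcinoma line, grown under the skin of WT Balb/c mice. The 5 groups received PBS, PD1plusCTLA4 (αPD-1 and αCTLA-4), PD1plusCD40 (αPD-1 and αCD40), CD40plusCTLA4 (αCD40 and αCTLA-4) or Triplet (all 3 antibodies). Antibodies that block the PD-1 and CTLA-4 receptors of T cells were thus combined with an agonist of CD40, a receptor of antigen-presenting cells. Every antibody was given intraperitoneally at 200 µg, first on day 10 and once more, and the tumours were taken 24 hours after the second dose. Each group is 1 library made from 3 pooled mice, so no treatment difference has a replicate. T cells, other immune cells and CD45-negative cells were sorted and mixed before loading, so the number of cells of a class in a library is set partly by the sort. The age and sex of the mice are not given in the sources used here.

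Oxidative phosphorylation takes electrons from NADH at complex I and from succinate at complex II, passes them through ubiquinone to complex III and through cytochrome c to complex IV, where oxygen is reduced. Complexes I, III and IV pump protons out of the mitochondrial matrix, and complex V, the ATP synthase, lets them back in to make ATP. Most subunits are encoded in the nucleus and a core set in mitochondrial DNA. Macrophages, tumour cells and T cells shift between this pathway and glycolysis as their state changes, and bone-resorbing osteoclasts are known for abundant mitochondria.

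Promoters of the 3 genes for the c subunit of the ATP synthase rotor, and of 3 other members whose levels are given below, are shown because these genes carry different motifs for factors known to act on respiratory genes. The sequences are from RefSeq, build GRCm38.p6, each being the 120 bases before the annotated start, written 5′ to 3′ on the gene's strand, with motif matches in capitals.
Atp5g1 (chr11:96075632-96075751, - strand): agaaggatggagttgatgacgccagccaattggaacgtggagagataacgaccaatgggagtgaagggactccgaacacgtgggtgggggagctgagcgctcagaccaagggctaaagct
Atp5g2 (chr15:102671048-102671167, - strand): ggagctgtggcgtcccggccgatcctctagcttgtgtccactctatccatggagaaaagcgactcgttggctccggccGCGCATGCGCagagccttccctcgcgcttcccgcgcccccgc
Atp5g3 (chr2:73911327-73911446, - strand): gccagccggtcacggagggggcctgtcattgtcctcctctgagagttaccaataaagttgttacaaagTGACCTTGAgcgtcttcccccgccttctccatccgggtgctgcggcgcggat
Atp5k (chr5:108434400-108434519, - strand): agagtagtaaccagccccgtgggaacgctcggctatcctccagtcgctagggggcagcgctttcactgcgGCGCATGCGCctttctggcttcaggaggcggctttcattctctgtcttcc
Sdhd (chr9:50603850-50603969, - strand): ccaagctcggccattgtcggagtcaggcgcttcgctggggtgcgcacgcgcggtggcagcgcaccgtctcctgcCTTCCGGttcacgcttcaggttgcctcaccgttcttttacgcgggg
Uqcrh (chr4:116075071-116075190, - strand): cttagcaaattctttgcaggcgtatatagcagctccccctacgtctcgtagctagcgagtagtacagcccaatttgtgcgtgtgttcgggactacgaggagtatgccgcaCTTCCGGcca
The capitals mark GCGCATGCGC (NRF1) in Atp5g2 and Atp5k, TGACCTTGA (the reverse complement of the ERR motif TCAAGGTCA) in Atp5g3, and CTTCCGG (the reverse complement of the ETS motif CCGGAAG) in Sdhd and Uqcrh. Atp5g1 held none of the 4 motifs searched in its stretch. Promoters of 65 of the 81 members were matched, giving 70 windows of 250 bases before to 50 bases after a start, and both strands were searched. The NRF1 motif was in 5 of the 70 windows (7.14%) and in 0.971% of all 32851 windows, and the ETS motif was in 17 (24.3%) and in 8.86% of all windows. The ERR motif was in 2 windows (2.86%, Atp5g3 and Sdhd) and in 0.423% of all, and the YY1 motif AAGATGGCG was in 7 (10.0%) and in 1.40% of all. At least 1 of the 4 was found in 27 member windows (38.6%) and in 11.1% of all. A match describes letters in the window and does not show binding. The 4 motifs do not overlap one another.

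The 5 libraries held 61792481 to 95867828 UMIs and 4381 to 16884 cells after filtering, with medians of 1422 to 13113.5 UMIs per cell. Cells were grouped by expression without the members and without mitochondrially encoded genes, and groups were named from cell type markers. Clusters without a clear name held 15.9% of cells in Triplet, 24.2% in PD1plusCTLA4, 41.1% in PBS, 66.2% in CD40plusCTLA4 and 71.1% in PD1plusCD40. The PBS library stands apart: in its T cells 78.4% of T cell receptor variable and constant segment UMIs came from variable segments, against 3.95% to 5.42% in the treated libraries, and its file names another software version. PBS is therefore given as levels only, and classes are compared over the 4 treated libraries. In these, summed T cell markers reached 4719 to 5006 UMIs per 1000000 UMIs of the class (UPM) in T-like cells and 19 to 29.9 in monocyte/macrophage-like cells. Summed macrophage markers reached 8571 to 11759 UPM in monocyte/macrophage-like cells, 606 to 1271 in T-like and 477 to 898 in tumour-like cells. Summed osteoclast markers reached 25108 to 30197 UPM in the osteoclast-like class and 54.8 to 351 in monocyte/macrophage-like cells. Summed tumour markers reached 3227 to 4462 UPM in tumour-like cells. They reached 28.3 to 45.4 UPM in T-like, 117 to 127 in monocyte/macrophage-like and 20.1 to 23.0 in osteoclast-like cells. In neutrophil-like cells they reached 328 to 517 UPM and in conventional dendritic cells 591 to 683. Of the 10 tumour markers, only the keratin Krt19 was at 0 in T-like, monocyte/macrophage-like and osteoclast-like cells. The part of RNA shared between classes in the differences below was not tested. Between 0 and 69 barcodes were used in both of any 2 libraries.

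The 81 members together took the smallest share of UMIs in neutrophil-like cells and the largest in osteoclast-like phagocytes, a class defined by Ctsk, Acp5 and Mmp9. The share was 1.42% ± 0.0686 (SD, n = 4 libraries) in neutrophil-like cells, 2.34% ± 0.211 (n = 3) in mature dendritic cells, 2.74% ± 0.350 (n = 3) in NK-like cells and 2.84% ± 0.231 (n = 4) in T-like cells. It was 2.82% ± 0.0802 (n = 2) in conventional dendritic cells, 3.43% ± 0.327 (n = 4) in monocyte/macrophage-like cells, 3.66% ± 0.172 (n = 4) in tumour-like cells and 4.51% ± 0.0927 (n = 3) in osteoclast-like phagocytes. Neutrophil-like cells (1.33% to 1.49%) lay below every other named class in every library, and osteoclast-like phagocytes (4.42% to 4.61%) above every other named class. The ranges of NK-like, T-like and conventional dendritic cells overlapped, as did those of monocyte/macrophage-like cells (2.96% to 3.73%) and tumour-like cells (3.46% to 3.81%). Regulatory T-like cells, part of the T-like class, stood at 2.88% ± 0.263 (n = 4). In PBS the share was 1.00% in neutrophil-like, 2.43% in T-like, 2.95% in monocyte/macrophage-like and 3.70% in tumour-like cells, the same order. 

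**Figure D1:**
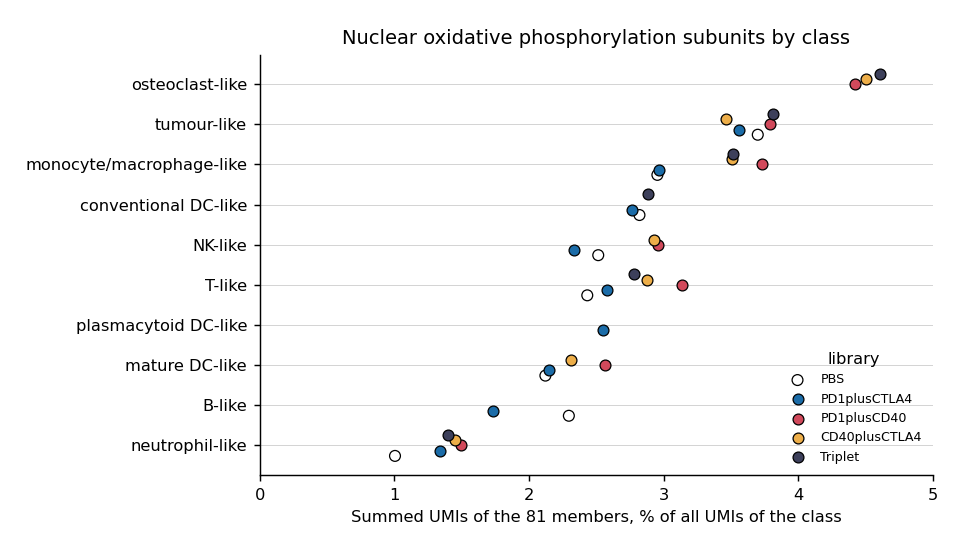
Summed share of UMIs (percent) taken by the 81 members in each cell class, 1 point per library with at least 50 cells, colours for libraries and open points for PBS. Osteoclast-like phagocytes lie highest (4.42% to 4.61%) and neutrophil-like cells lowest (1.33% to 1.49% in the treated libraries).

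Member by member, among the 8 classes mapped, the mean level over the treated libraries was highest in osteoclast-like phagocytes for 52 of the 81 genes and in tumour-like cells for 21. Those 52 were 19 of complex I, all 4 of complex II, 7 of 8 of complex III, 10 of complex IV and 12 of complex V. Of the 21 highest in tumour-like cells, 14 were of complex I, 5 of complex V and 1 each of complexes III and IV. The 52 include Cox6a2, which was far higher in plasmacytoid dendritic cells, a class outside the 8, and Ndufa1, Ndufs4 and Ndufv3, whose means in regulatory T-like cells, part of the T-like class, were higher still. Neutrophil-like cells had the lowest mean for 65 members and mature dendritic cells for 10. The same counts were not made over all genes, so how far they are particular to the members is not known. The class with the highest mean was not the same for all members, as the map of members by class shows.

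**Figure D2:**
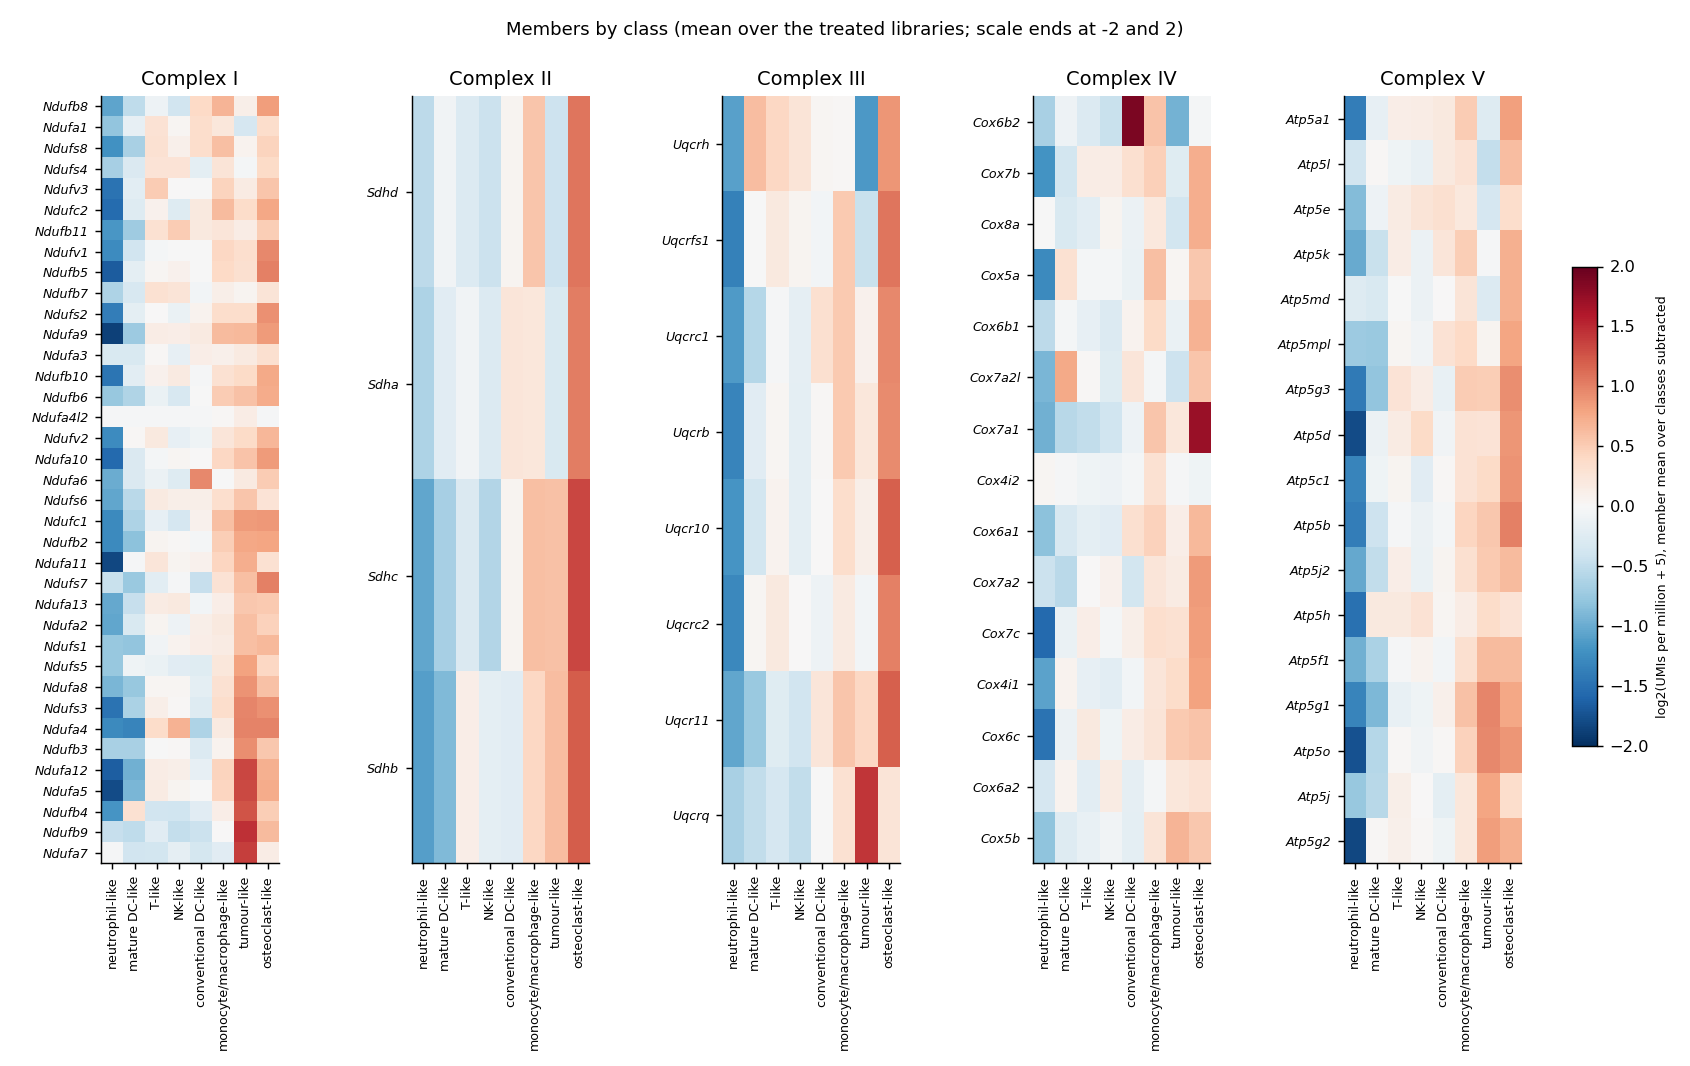
Each row is 1 member and each column 1 of 8 cell classes, in 5 panels by complex. Colour is the mean of log2(UPM + 5) over treated libraries with the member's mean over classes subtracted, from -2 to 2. The osteoclast-like column is highest for 52 members and the tumour column for 21, 14 of them of complex I.

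Differences between classes were tested with edgeR's quasi-likelihood test on UMIs summed per library and class, with the library as a block and Benjamini-Hochberg adjustment over 14673 genes. Of the 81 members 79 passed the filter on low counts, Cox4i2 and Ndufa4l2 being left out. In monocyte/macrophage-like against T-like cells, 66 of the 79 members were higher and 0 lower at an adjusted p under 0.05, against 31.5% of all genes higher and 26.6% lower. At an unadjusted p under 0.05 the count was 68 higher and 0 lower, and DESeq2 called 65 higher and 1, Uqcrh, lower. The members' median log2 difference was 0.54, beside 0.07 over all genes tested. With class totals as the only scaling, 51 were higher and 1 lower (background 24.7% and 35.0%), with a median of 0.32 beside -0.14 over all genes. The higher calls came from all complexes: 28 of 36 for complex I, 4 of 4 for II, 6 of 8 for III, 12 of 14 for IV and 16 of 17 for V.

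In tumour-like against T-like cells the members split, 34 being higher and 20 lower (background 38.7% and 34.0%), with a median of 0.17 beside 0.06 over all genes. With class totals as the scaling, 48 were higher and 14 lower (background 43.3% and 30.4%; median 0.33 beside 0.22). With a 5% mitochondrial limit, or with the members and mitochondrially encoded genes left in for clustering, 12 were lower. In that clustering only 1 member was among the variable genes. The higher calls included 19 members of complex I, 2 of II, 2 of III, 4 of IV and 7 of V.

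In tumour-like against monocyte/macrophage-like cells the result depended on the scaling. With trimmed-mean (TMM) scaling 11 members were higher and 46 lower (background 36.3% and 34.6%), with a median of -0.33 beside 0.01 over all genes. With class totals 30 were higher and 28 lower (background 48.9% and 25.4%), with a median of 0.04 beside 0.37 over all genes. DESeq2 called 21 higher and median-ratio factors in edgeR 18. The 2 scalings differ by about the same amount for the members as for all genes, and under both the members' median lay below that of all genes. Under all 4 scalings tried (TMM, median-ratio factors in edgeR, DESeq2 and class totals) 11 members were called higher and 28 lower. No member was called in opposite directions by any 2 of them. The count under all 4 was not made over all genes, so how far it is particular to the members is not known. Shares of all genes with DESeq2 or median-ratio factors are not given here.

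In osteoclast-like phagocytes against monocyte/macrophage-like cells 58 members were higher and 1 lower (background 19.5% and 21.0%), with a median of 0.46 beside -0.06 over all genes. With class totals 52 were higher and 1 lower (background 16.4% and 25.7%; median 0.35 beside -0.17). With a 5% mitochondrial limit, 38 were higher. The class came from the 3 libraries with αCD40, since PD1plusCTLA4 held 9 such cells. The members were not among the genes used to form the class. This comparison was added after the data were seen.

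**Figure D3:**
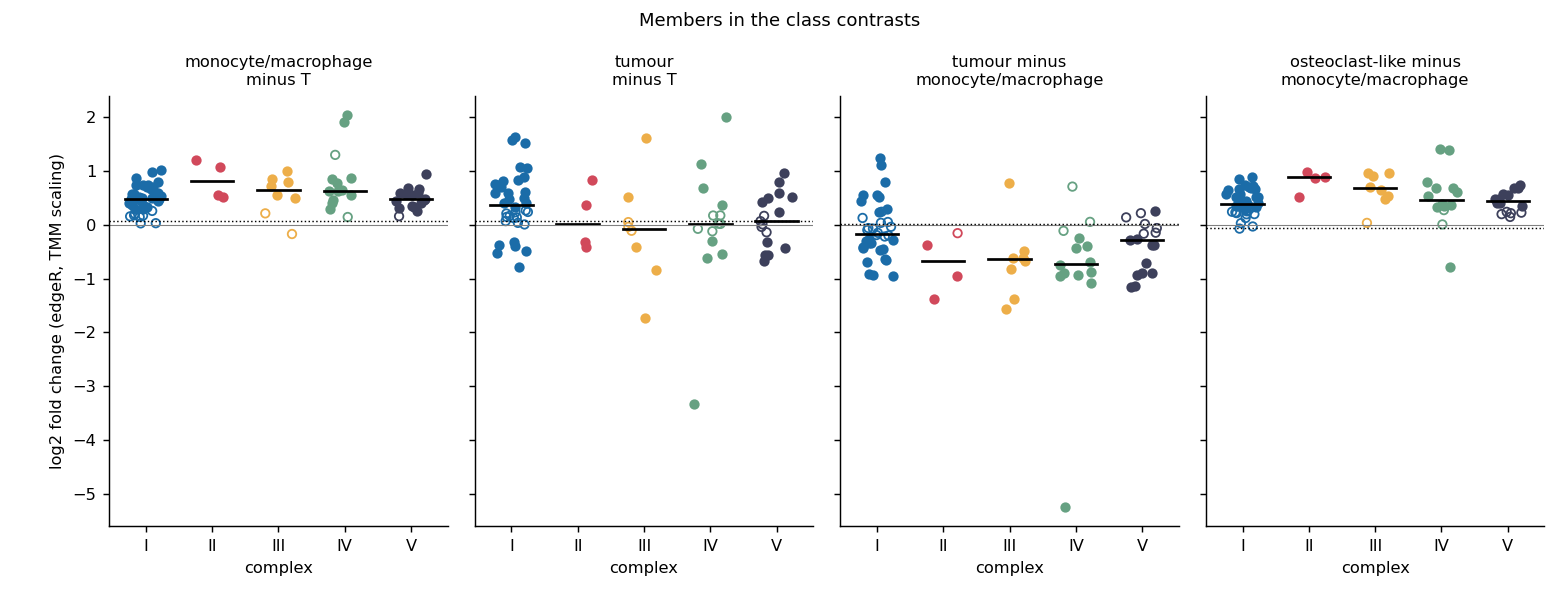
Log2 difference (edgeR) of each tested member in 4 class comparisons, grouped by complex. Filled points passed an adjusted p of 0.05 and open points did not, bars are medians by complex and dotted lines the median of all genes. Most points lie above the dotted line in monocyte/macrophage-like against T-like cells (66 higher) and in osteoclast-like phagocytes against monocyte/macrophage-like cells (58 higher).

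Complex I, the largest complex, has a matrix arm that oxidises NADH and a membrane arm that pumps protons. In summed level it reached 13060, 13286, 12140 and 13529 UPM in tumour-like cells of PD1plusCTLA4, PD1plusCD40, CD40plusCTLA4 and Triplet, the order used for all values below. In monocyte/macrophage-like cells it stood at 8537, 10727, 10184 and 9769 UPM, and in T-like cells at 7683, 9547, 8470 and 8218. On class totals it was the only complex whose summed level was higher in tumour-like than in monocyte/macrophage-like cells in every treated library. With TMM scaling, 9 of its 36 tested members were higher and 15 lower (median -0.17), beside 36.3% and 34.6% of all genes. With class totals 18 were higher and 6 lower (median 0.20), beside 48.9% and 25.4% of all genes and their median of 0.37. The share of higher members of complex I was thus near that of all genes with class totals and below it with TMM scaling.

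Of complex I, the accessory subunits Ndufa7, Ndufb9 and Ndufb4 rose most in tumour-like against monocyte/macrophage-like cells. Ndufa7, of the NADH-oxidising arm, was at 664, 684, 576 and 717 UPM in tumour-like cells. In monocyte/macrophage-like cells it was at 196, 235, 207 and 223 UPM, and in T-like cells at 178, 207, 185 and 201. The groups did not overlap, and the log2 difference was 1.24 ± 0.11 (SE, edgeR adjusted p = 7.0e-12) against monocyte/macrophage-like and 1.62 ± 0.11 (adjusted p = 3.1e-14) against T-like cells. Ndufb9, of the membrane arm, was at 1389, 1338, 1240.4 and 1212 UPM in tumour-like and 418, 504, 516 and 431 in monocyte/macrophage-like cells (log2 difference 1.10 ± 0.12, adjusted p = 2.1e-09). Every tumour value was more than 2 times every macrophage value for Ndufa7 and Ndufb9. Ndufb4, also of the membrane arm, was at 616, 650.0, 501 and 696 UPM in tumour-like and 219, 320.4, 279 and 295 in monocyte/macrophage-like cells (0.78 ± 0.12, adjusted p = 1.4e-06). Under all 4 scalings Ndufa12, Ndufa4, Ndufa5, Ndufa8, Ndufb3 and Ndufs3 were also higher in tumour-like than in monocyte/macrophage-like cells. Ndufs3, a core subunit, differed by 0.28 ± 0.11 (adjusted p = 0.023).

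Other complex I members went the other way. Ndufa1, a membrane arm subunit encoded on the X chromosome, was at 167, 220.4, 188 and 280.4 UPM in tumour-like and 253, 357, 279 and 381 in monocyte/macrophage-like cells. It was lower in tumour-like cells within each library, although the ranges overlapped between libraries (log2 difference -0.95 ± 0.10, adjusted p = 4.6e-10). Ndufb8 (-0.94 ± 0.10), Ndufs4 (-0.68 ± 0.10) and Ndufv3 (-0.66 ± 0.13) were also lower in tumour-like than in monocyte/macrophage-like cells under all 4 scalings, as were Ndufc2 and Ndufs8. Ndufb8 was the complex I member with the widest gap between monocyte/macrophage-like and T-like cells (1.01 ± 0.10, adjusted p = 5.6e-10). Its levels were 523, 625, 647 and 548 UPM against 303, 390.2, 375 and 291.

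Ndufa4, named for complex I and now assigned to complex IV, had a pattern of its own. It was at 1133, 1129, 1017 and 1284 UPM in tumour-like cells and at 1104, 1201 and 1144 in osteoclast-like phagocytes (PD1plusCD40, CD40plusCTLA4 and Triplet, as for every value of this class). It was at 216, 238 and 224 UPM in mature dendritic cells of the first 3 libraries, while T-like cells held 667, 827, 751 and 723 and monocyte/macrophage-like cells 564, 729.9, 687 and 619. The last pair of classes did not pass the test (log2 difference 0.02 ± 0.11, edgeR adjusted p = 0.88). Osteoclast-like phagocytes were higher than monocyte/macrophage-like cells by 0.89 ± 0.12 (adjusted p = 2.9e-07). Its paralog Ndufa4l2, known as hypoxia-induced, stayed at or under 1.08 UPM in every class of the treated libraries. Ndufa6 was highest in conventional dendritic cells, at 632 UPM in PD1plusCTLA4 and 607 in Triplet, whereas the means of the other 7 classes of the map lay between 157 and 452.

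Complex II, succinate dehydrogenase, is the only complex with no mitochondrially encoded subunit, and it also serves in the tricarboxylic acid cycle. Its 4 genes summed to 822 to 927 UPM in osteoclast-like phagocytes, 460.3 to 589 in monocyte/macrophage-like cells, 444 to 489 in tumour-like cells and 331 to 413 in T-like cells. All 4 were higher in monocyte/macrophage-like than in T-like cells and higher again in osteoclast-like phagocytes, under each of the 4 scalings. With TMM scaling 31.5% and 19.5% of all genes were higher in these comparisons. Sdhc and Sdhd, the membrane anchors, differed most from T-like cells, by 1.19 ± 0.14 (edgeR adjusted p = 1.1e-08) and 1.06 ± 0.12 (adjusted p = 3.3e-09). Sdha, the flavoprotein that oxidises succinate, was at 111, 122 and 155 UPM in osteoclast-like phagocytes. It was at 76.0, 65.5, 67.9 and 80.9 UPM in monocyte/macrophage-like cells (log2 difference 0.98 ± 0.13, adjusted p = 1.5e-07). In tumour-like cells it was at 56.0, 46.0, 32.9 and 58.4 UPM, below every monocyte/macrophage-like value (-0.96 ± 0.12, adjusted p = 3.2e-08). Sdhd was at 56.0, 91.4, 87.6 and 81 UPM in tumour-like and 113, 175, 180.1 and 168 in monocyte/macrophage-like cells (-1.38 ± 0.12, adjusted p = 4.0e-12). Sdhb, the iron-sulfur subunit, did not pass that comparison (-0.16 ± 0.11, adjusted p = 0.20), at 246, 268, 248 and 256 UPM against 192, 231, 254 and 208. In tumour-like cells the subunits of this complex therefore did not keep to 1 direction, since Sdhb and Sdhc were higher than in T-like cells under all 4 scalings, while Sdha (-0.41 ± 0.13) and Sdhd (-0.33 ± 0.12) were lower with TMM scaling.

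Complex III, the cytochrome bc1 complex, held members that differed in opposite directions in tumour-like cells. Uqcrh, the hinge protein at cytochrome c1, was at 292, 311, 315 and 314 UPM in tumour-like cells. It was at 703, 739.5, 711 and 646 UPM in monocyte/macrophage-like, 896, 964.5, 913 and 889 in T-like and 1303, 1216 and 1266 in osteoclast-like phagocytes. Every tumour value lay below every value of these 3 classes, and of the 8 classes mapped only neutrophil-like cells (289 to 350.2 UPM) were in the same range. The log2 difference was -1.56 ± 0.09 (edgeR adjusted p = 5.5e-16) against monocyte/macrophage-like and -1.74 ± 0.09 (adjusted p = 6.0e-17) against T-like cells. Uqcrq, a small subunit of the same complex, went the opposite way. It was at 1429, 1502, 1236 and 1527 UPM in tumour-like cells, 558, 698, 629.5 and 702 in monocyte/macrophage-like, 387, 459, 398 and 421 in T-like cells and 587, 633 and 661 in osteoclast-like phagocytes. Its log2 difference was 0.77 ± 0.11 (adjusted p = 1.3e-07) against monocyte/macrophage-like and 1.61 ± 0.11 (adjusted p = 2.1e-14) against T-like cells. In PBS the 2 genes were at 203 and 1168 UPM in tumour-like and at 413 and 490.1 in monocyte/macrophage-like cells, with the same directions.

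Uqcrfs1, the Rieske iron-sulfur protein, was at 81.5, 97.6, 113 and 87.9 UPM in tumour-like, 165, 202, 225 and 173 in monocyte/macrophage-like cells and 262, 314 and 265 in osteoclast-like phagocytes (tumour against monocyte/macrophage -1.39 ± 0.12, edgeR adjusted p = 3.3e-12). The core proteins Uqcrc1 (-0.83 ± 0.10) and Uqcrc2 (-0.62 ± 0.11) and the small subunits Uqcrb (-0.67 ± 0.10) and Uqcr10 (-0.61 ± 0.11) were also lower in tumour-like cells under all 4 scalings. Of the 8 members, Uqcrq alone was higher there. In osteoclast-like phagocytes 7 of 8 were higher than in monocyte/macrophage-like cells, beside 19.5% of all genes. Uqcrc2 (0.96 ± 0.11, edgeR adjusted p = 1.6e-08) and Uqcrh (0.96 ± 0.10, adjusted p = 1.3e-09) led them. Uqcrq did not pass there (0.03 ± 0.12, adjusted p = 0.86).

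Complex IV, cytochrome c oxidase, hands the electrons to oxygen. Its members summed to 12761, 12751 and 13588 UPM in osteoclast-like phagocytes, 8623, 10754, 10077 and 10105 in monocyte/macrophage-like cells, 8385 to 9304 in tumour-like cells and 7085 to 8460 in T-like cells. In tumour-like against monocyte/macrophage-like cells 11 of 14 tested members were lower and 0 higher by edgeR with TMM scaling (median -0.73). Of all genes 34.6% were lower and 36.3% higher, with a median of 0.01. The unadjusted count of members was also 11 lower and 0 higher, and DESeq2 called 10 lower and 1 higher. Class totals gave 8 lower and 3 higher (median -0.35), beside 25.4% and 48.9% of all genes. Ndufa4, counted with complex I by its name, was higher in tumour-like cells under all 4 scalings. Cox7b was at 389, 407, 369 and 437 UPM in tumour-like and 610.0, 687, 635 and 700.2 in monocyte/macrophage-like cells (-1.09 ± 0.12, adjusted p = 8.0e-10). Cox8a (-0.95 ± 0.10) and Cox5a (-0.93 ± 0.10) were lower to a similar degree. Cox5b, at 962, 1043, 952 and 1018 against 658, 797, 763 and 749 UPM, did not pass with TMM scaling (0.05 ± 0.11, adjusted p = 0.71). Cox4i1, the main regulatory subunit, was at 2063, 2172 and 1979 UPM in osteoclast-like phagocytes and 1349, 1504, 1565 and 1219 in monocyte/macrophage-like cells (0.68 ± 0.12, adjusted p = 1.3e-05).

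Several complex IV subunits have isoforms known from particular tissues, and these were low in most classes with clear exceptions. Cox4i2, the lung isoform, stayed at or under 2.16 UPM in every class of the treated libraries. Cox7a1, the heart and muscle isoform of Cox7a, was at 28, 26.2 and 45.3 UPM in osteoclast-like phagocytes, 6.48, 15.2, 12.9 and 13.3 in monocyte/macrophage-like cells and 1.90, 3.01, 1.81 and 5.91 in T-like cells. The values of the 3 classes did not overlap. It had the largest rise of all members in monocyte/macrophage-like against T-like cells (2.03 ± 0.25, edgeR adjusted p = 2.6e-08) and in osteoclast-like against monocyte/macrophage-like cells (1.40 ± 0.18, adjusted p = 1.5e-07). The common isoform Cox7a2 remained far above it in UMIs, at 1090.1, 1073 and 1174 UPM in osteoclast-like phagocytes. Cox7a2l, a factor of respiratory supercomplexes, was highest in mature dendritic cells, at 586, 463 and 450.5 UPM.

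Cox6b2, the testis isoform of Cox6b, was at 35.3 UPM in conventional dendritic cells of PD1plusCTLA4 and 29.4 in those of Triplet. It was at 14.9, 9.78, 8.50 and 6.99 UPM in monocyte/macrophage-like cells and at 0.422, 0, 0.402 and 0.169 in tumour-like cells, where these levels rest on 16, 0, 1 and 2 UMIs. The log2 difference between the last pair was -5.23 ± 0.38 (edgeR adjusted p = 1.2e-13), a fitted value that depends on the prior count for so low a gene. It was also the 1 member lower in osteoclast-like than in monocyte/macrophage-like cells (-0.78 ± 0.28, adjusted p = 0.024), a call that DESeq2 did not make.

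Cox6a2, the heart and muscle isoform of Cox6a, was high in plasmacytoid dendritic cells and near 0 in most other classes. In PD1plusCTLA4, the library with 196 such cells, it was at 1312 UPM (1943 UMIs, exact Poisson 95% interval 1255 to 1372, counting error only). It was at 1884 UPM in 14 cells of PD1plusCD40, 485 in 40 cells of CD40plusCTLA4, 1022 in 11 cells of Triplet and 4414 in 13 cells of PBS. The common isoform Cox6a1 was at 217 UPM in the same PD1plusCTLA4 cells, and the defining marker Siglech at 1324. In the other classes with at least 50 cells Cox6a2 stayed at or under 6.11 UPM in the treated libraries, except for 54.9 UPM in B-like cells of PD1plusCTLA4. The gene was not used to form the clusters, yet it ranked beside Siglech as a leading gene of that cluster.

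Complex V, the ATP synthase, joins a rotating ring to the catalytic head. Its 17 members summed to 13158 to 13770 UPM in osteoclast-like phagocytes, 10220 to 11236 in tumour-like, 9050 to 11514 in monocyte/macrophage-like and 8076 to 9812 in T-like cells. The 3 genes for the c subunit of the ring, whose promoters are shown above, differed from one another. A link between their motifs and their levels was not tested. Atp5g1, with no motif match, was at 679.6, 927, 797 and 750.0 UPM in tumour-like, 434, 668, 666 and 654 in monocyte/macrophage-like and 324, 376, 404 and 343 in T-like cells. Atp5g2, with the NRF1 match, was at 1326, 1363, 1389 and 1241 UPM in tumour-like, 749.5, 939.9, 956 and 802 in monocyte/macrophage-like and 751, 840.0, 907 and 681 in T-like cells. Atp5g3, with the ERR match, was at 427, 497, 499 and 495 UPM in tumour-like, 374, 526, 517 and 529 in monocyte/macrophage-like and 347, 476, 433 and 390.5 in T-like cells. Tumour-like values of Atp5g1 and Atp5g2 lay above all monocyte/macrophage-like and T-like values, and those of Atp5g3 overlapped them. With TMM scaling, tumour-like cells did not differ from monocyte/macrophage-like cells in Atp5g1 past the threshold (0.01 ± 0.12, edgeR adjusted p = 0.94). Tumour-like cells were higher than monocyte/macrophage-like cells in Atp5g2 under all 4 scalings. Against T-like cells they were higher in Atp5g1 (0.95 ± 0.12, edgeR adjusted p = 1.5e-08) and Atp5g2 (0.59 ± 0.11, adjusted p = 1.0e-05), while Atp5g3 did not pass (0.06 ± 0.12, adjusted p = 0.63). Monocyte/macrophage-like cells were higher than T-like cells in Atp5g1 (0.94 ± 0.12, adjusted p = 3.0e-08), Atp5g2 (0.33 ± 0.11, adjusted p = 0.0079) and Atp5g3 (0.45 ± 0.11, adjusted p = 0.0012), of which Atp5g1 alone was called under all 4 scalings. In osteoclast-like phagocytes Atp5g2 (0.57 ± 0.11) and Atp5g3 (0.47 ± 0.12) were higher than in monocyte/macrophage-like cells, and Atp5g1 did not pass (0.24 ± 0.13, adjusted p = 0.14).

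The catalytic head showed the same unevenness in tumour-like cells. Atp5a1, the α subunit, was at 251, 219, 237 and 236 UPM there, below the 397 to 419.7 UPM of monocyte/macrophage-like and the 294 to 331 of T-like cells. Its log2 difference was -1.16 ± 0.11 (edgeR adjusted p = 2.8e-11) and -0.57 ± 0.11 (adjusted p = 2.1e-05). Atp5b, the β subunit that pairs with it, was at 561, 529, 601 and 536 UPM in tumour-like and 452, 527, 564 and 523 in monocyte/macrophage-like cells, and was higher in tumour-like than in T-like cells (0.41 ± 0.11, adjusted p = 0.0010). Among the small subunits of the stalk and membrane part, Atp5l (-1.14 ± 0.11), Atp5e (-0.94 ± 0.10), Atp5k (-0.89 ± 0.11) and Atp5md (-0.89 ± 0.10) were lower in tumour-like than in monocyte/macrophage-like cells under all 4 scalings. Those without a place in the naming rule, such as Atp5b and Atp5l, were named after their values were seen, as were Cox5a and Cox5b.

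The osteoclast-like class was made of clusters that differed from one another. The cluster led by Acp5 and Ctsk held members at 49559 to 51333 UPM in the 3 libraries with αCD40 (180 to 408 cells each). The cluster led by Mmp9 and Ctsk held 35424 to 39087 UPM (86 to 343 cells), inside the range of the monocyte/macrophage-like clusters. Among these, the cluster led by C1qa and Aif1 was highest, at 39496 to 42408 UPM. The cluster led by Arg1 and Hilpda was the lowest monocyte/macrophage-like or osteoclast-like cluster in the 3 libraries that held it, at 27977 to 29766 UPM. Dendritic cell clusters are not part of this ranking. In PD1plusCTLA4 the lowest of these was the cluster led by the monocyte markers Plac8 and Ly6c2, at 24340 UPM. This cluster was at 32992 UPM in CD40plusCTLA4 and 34801 in PD1plusCD40, just above the cluster led by Ccl8 (32661 and 34602). The Arg1 cluster also held 14 hypoxia genes at 2872 to 2939 UPM, against 398 to 830 UPM in the other clusters of these classes. Hypoxia genes were not left out when clusters were formed, and Bnip3 and Ankrd37 of the 14 were among its leading genes. Its hypoxia level is therefore not independent of how it was formed. Within the T-like class a cluster led by Lef1 and Satb1, genes of resting T cells, was at 16397 to 17625 UPM in 2 libraries, below 22568 to 25341 for the cluster led by Ms4a4b and Trbc2 and 24703 to 31123 for that led by Ikzf2 and Tnfrsf4.

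**Figure D4:**
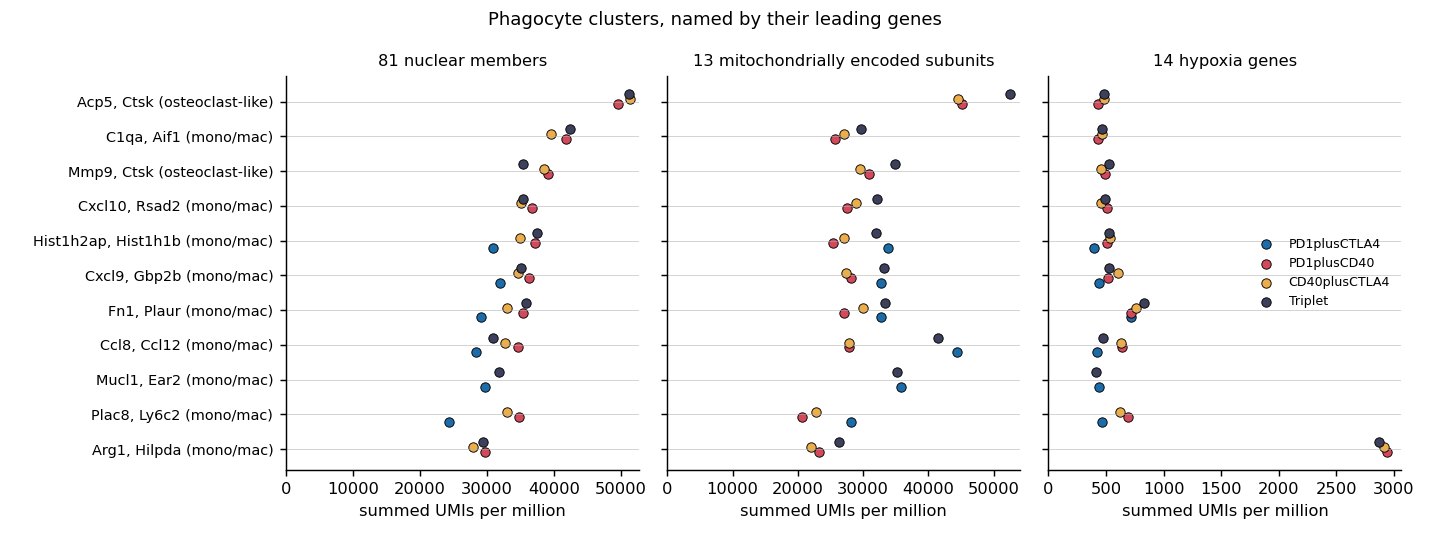
Summed UPM of the 81 members, the 13 mitochondrially encoded subunits and 14 hypoxia genes in each phagocyte cluster, 1 point per treated library. The Acp5 and Ctsk cluster is highest in members (49559 to 51333 UPM), and the Arg1 and Hilpda cluster is high in hypoxia genes (2872 to 2939 UPM) and low in members.

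Other mitochondrial genes were read from fixed lists in the same test. In osteoclast-like against monocyte/macrophage-like cells 10 of the 13 mitochondrially encoded subunits and 13 of 17 tricarboxylic acid cycle genes were higher, against 19.5% of all genes. Assembly factors were 20 higher and 1 lower of 49, and mitochondrial ribosome genes 30 higher and 1 lower of 78. Glycolysis genes were 3 higher and 8 lower of 16, hypoxia genes 1 higher and 7 lower of 14, and 19 of 20 cell cycle genes were lower. In monocyte/macrophage-like against T-like cells, 12 of 13 mitochondrially encoded subunits were higher and glycolysis genes were 12 higher and 2 lower of 16, against 31.5% and 26.6% of all genes. Assembly factors were 12 higher and 8 lower of 49 there with TMM scaling. With class totals they were 6 higher and 14 lower, beside 24.7% and 35.0% of all genes. In tumour-like against monocyte/macrophage-like cells the mitochondrially encoded subunits were 3 higher and 1 lower, assembly factors 23 higher and 9 lower of 49, and mitochondrial ribosome genes 30 higher and 15 lower of 78, against 36.3% and 34.6% of all genes. With class totals these counts were 8 and 0, 32 and 4, and 56 and 5 (background 48.9% and 25.4%). The nuclear subunits were 11 higher and 46 lower with TMM scaling and 30 and 28 with class totals. Summed mitochondrially encoded subunits stood at 55012, 37933, 37086 and 57330 UPM in tumour-like and 35820, 26254, 27560 and 33703 in monocyte/macrophage-like cells.

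The 13 regulators were 3 higher and 1 lower in osteoclast-like against monocyte/macrophage-like cells (median -0.08; background 19.5% and 21.0%), and 6 higher and 2 lower in tumour-like against monocyte/macrophage-like cells. Among them Esrra, a nuclear receptor known to act on respiratory genes with PGC-1 coactivators, was at 27.1, 28.6 and 28.1 UPM in osteoclast-like phagocytes. It was at 20.1, 16.6, 18.6 and 17.5 UPM in monocyte/macrophage-like cells and at 8.06, 5.58, 10.4 and 6.09 in tumour-like cells (0.78 ± 0.14, edgeR adjusted p = 2.9e-05, and -1.66 ± 0.15). Ppargc1a, the coactivator PGC-1α, was at 6.51, 3.49, 0.402 and 6.09 UPM in tumour-like and at or under 0.12 in monocyte/macrophage-like cells. Ppargc1b, the related coactivator PGC-1β, was named after its values were seen. It was at 45.2, 54.7 and 64.0 UPM in osteoclast-like phagocytes and 31.3, 19.8, 18.9 and 21.4 in monocyte/macrophage-like cells (1.5 ± 0.15, adjusted p = 6.3e-10). Tfam, which packages and transcribes mitochondrial DNA, was higher in tumour-like cells, at 51.6, 41.8, 52.6 and 52.7 UPM against 20.6, 21.8, 21.2 and 21.4 in monocyte/macrophage-like cells (0.87 ± 0.13, adjusted p = 5.2e-07).

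Treatments were compared within a class by the log2 ratio of UPM + 5, with 1 library a group and no test, and the comparisons below share the PD1plusCTLA4 library. In monocyte/macrophage-like cells the members lay mostly above PD1plusCTLA4. Their median was 0.28 in PD1plusCD40, 0.26 in CD40plusCTLA4 and 0.17 in Triplet, beside -0.10, -0.11 and -0.04 over all genes with at least 30 UMIs. With trimmed-mean scaling the first pair of medians was 0.48 and 0.47. Of 80 members 75, 75 and 64 were above 0, against 36.1%, 36.1% and 43.5% of all genes. At least 1.5-fold higher were 7, 4 and 8 members (background 8.62%, 9.07% and 9.61%) and at least 1.5-fold lower 2, 1 and 3 (background 24.6%, 26.4% and 10.0%). The shift was thus made of many small differences, and the share past 1.5-fold was near the background for higher members.

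The cells of this class were not the same mixture in the 4 libraries. In PD1plusCTLA4 most came from clusters led by Mucl1 and Ear2 (582 cells), Cxcl9 (382), Ccl8 (266) and Plac8 and Ly6c2 (258), whereas the clusters led by C1qa and Aif1, Fn1 and Plaur, and Hist1h2ap gave 884, 628 and 528 cells in CD40plusCTLA4 and 920, 804 and 527 in PD1plusCD40. The median over cell cycle genes was 0.55 higher in PD1plusCD40 and 0.51 in CD40plusCTLA4, and over glycolysis genes 0.48 and 0.72. Over the 13 mitochondrially encoded subunits it was -0.42 and -0.49, with 0 of 13 above 0 in either library. The part of cluster mixture, depth or cell cycle in the members' shift was not tested. 

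In T-like cells the member median was 0.25 in PD1plusCD40, 0.17 in CD40plusCTLA4 and 0.02 in Triplet, and in NK-like cells it was 0.33 and 0.32 in the first pair. Trimmed-mean scaling gave 0.26 for T-like cells of CD40plusCTLA4. In tumour-like cells the median was 0.06, -0.07 and 0.04, where PD1plusCD40 and CD40plusCTLA4 held 59 and 78 cells. Trimmed-mean scaling moved the first of these to 0.24 and turned the second to 0.080, and without ribosomal and mitochondrial UMIs in the total the first was 0.11, so the direction in tumour-like cells of CD40plusCTLA4 depended on the scaling. Between Triplet and PD1plusCD40 the median was -0.10 in monocyte/macrophage-like, -0.18 in T-like, 0.03 in osteoclast-like and 0.00 in tumour-like cells. Trimmed-mean scaling moved it to -0.26 in monocyte/macrophage-like and -0.16 in tumour-like cells, and the 5% mitochondrial limit turned it to -0.037 in osteoclast-like cells. Between Triplet and CD40plusCTLA4 it was -0.05, -0.11, -0.06 and 0.06 in the same classes. Trimmed-mean scaling moved the first to -0.22 and turned the last to -0.083, and the 5% limit moved the osteoclast-like value to -0.13.

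**Figure D5:**
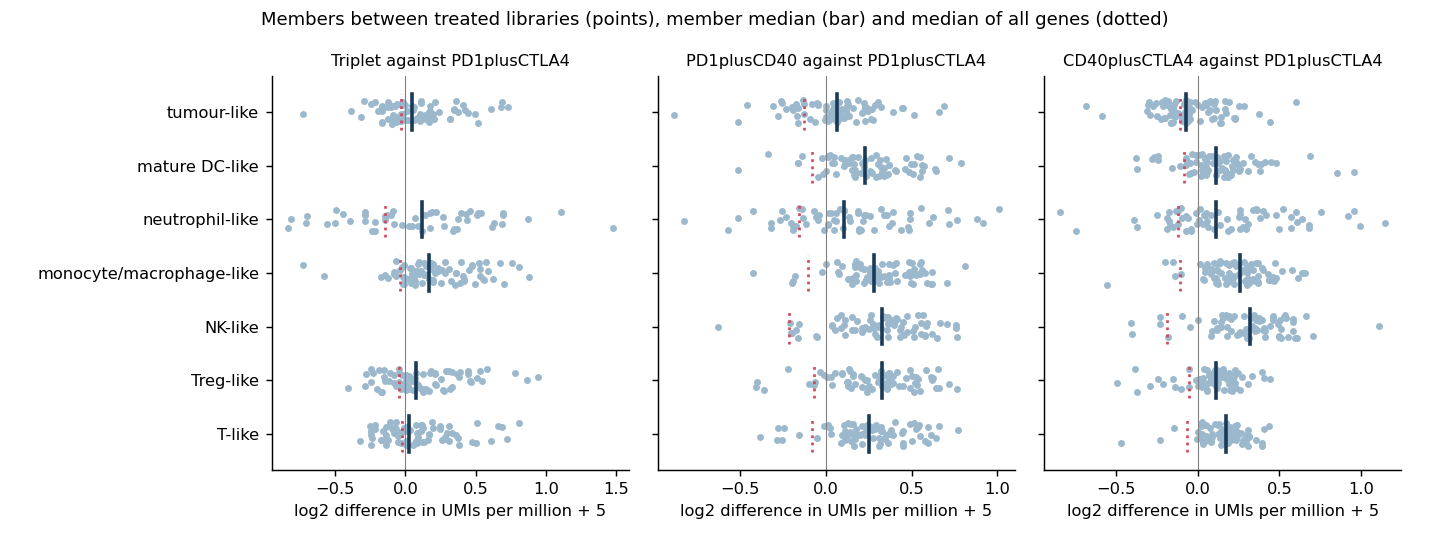
Log2 difference of UPM + 5 of each member in 3 libraries against PD1plusCTLA4, by cell class. Bars are member medians and dotted lines the medians of all genes, with 1 library a group and no test. In monocyte/macrophage-like cells the bars are at 0.28, 0.26 and 0.17, above the dotted lines at -0.10, -0.11 and -0.04.

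Single members moved in the same direction in every class of a library. Classes of 1 library share its preparation and depth, so these are not independent. Sdhd was above PD1plusCTLA4 in all 6 classes compared, by 0.51 to 0.92 in PD1plusCD40 and 0.41 to 1.15 in CD40plusCTLA4. In monocyte/macrophage-like cells its ratio was 1.60 in CD40plusCTLA4 (exact 95% interval 1.52 to 1.68, counting error only), from 113 to 180.1 UPM. Sdha, which sits in the same complex, was the 1 member below PD1plusCTLA4 in all 6 classes in either library, by -0.63 to -0.16 and -0.84 to -0.11, beside 25.5% and 24.0% of all genes below 0 in all 6. Its ratio in monocyte/macrophage-like cells was 0.862 (0.806 to 0.923) in PD1plusCD40 and 0.894 (0.837 to 0.955) in CD40plusCTLA4. The counting interval of the Sdha ratio lay below 1 in 2 of the 6 classes of each library and included 1 in the others. Atp5g1 had a ratio of 1.54 (1.5 to 1.58) in monocyte/macrophage-like cells in both libraries. Atp5md, a small membrane subunit of the ATP synthase, was higher by 0.44 to 0.77 in PD1plusCD40 and 0.35 to 0.81 in Triplet. In all, 39 of 66 members were above 0 in all 6 classes of PD1plusCD40, 20 of 68 in those of CD40plusCTLA4 and 21 of 53 in 5 classes of Triplet, beside 10.9%, 10.4% and 8.5% of all genes. In Triplet 2 members were below 0 in all 5 classes, beside 17.2% of all genes.

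In the 4 classes that every treated library held, 4 of 53 members were highest in Triplet in each class (Atp5k, Atp5mpl, Ndufa3 and Uqcr11) and 2 were lowest there (Atp5d and Cox4i1), each beside 2.13% of all genes. Ndufa3, of complex I, was at 218 UPM in its monocyte/macrophage-like cells, against 127, 183 and 139 in PD1plusCTLA4, PD1plusCD40 and CD40plusCTLA4. It was at 207 UPM in T-like cells against 116, 173 and 135, and at 234 in tumour-like cells against 151, 183 and 132. Atp5k, a membrane subunit of the ATP synthase, was at 554 UPM in monocyte/macrophage-like cells of Triplet against 299, 453 and 349. Uqcr11, a small subunit of complex III, was at 651 UPM there against 422, 649 and 520.3, so that it barely differed from PD1plusCD40. Cox4i1 was lowest in Triplet, at 1219 UPM in monocyte/macrophage-like cells against 1349, 1504 and 1565. Cox7a2l was also lowest in Triplet in this class, at 222 UPM in monocyte/macrophage-like cells of Triplet against 335, 292 and 303, a ratio of 0.663 (0.640 to 0.688) to PD1plusCTLA4.

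Some members in PBS stood far from the treated libraries. Atp5g3 was at 1101 UPM in monocyte/macrophage-like, 1257 in tumour-like and 902 in T-like cells of PBS, above every treated library. Ndufa7 was at 1312 UPM in tumour-like cells of PBS against 576 to 717 in the treated libraries, and Atp5k at 109 UPM in monocyte/macrophage-like cells against 299 to 554. The preparation of PBS and its treatment cannot be told apart.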

How the data were processed

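The deposited files hold UMI counts per gene and cell barcode, made with Cell Ranger, and the submitters' processing notes give the build mm9. Per the file headers the software version was 4 for PBS and 7.1.0 for the treated libraries. The labels' protocols describe a 5′ kit from 10x Genomics. The deposited counts carry no normalization by the authors. CD40plusCTLA4 and PBS were deposited with all barcodes and the others with barcodes of 500 or more UMIs.

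Cells had to show 500 UMIs and 300 genes, and those over 10% mitochondrial UMIs were removed. Scrublet (in scanpy 1.11.5) called 23, 0, 0, 1 and 4 doublets in PBS, PD1plusCTLA4, PD1plusCD40, CD40plusCTLA4 and Triplet, so few that it has not worked, and doublets remain. Cells were clustered on 2000 variable genes without the members and mitochondrially encoded genes (30 components, 15 neighbours, Leiden resolution 2) and named from markers, and a class entered with at least 50 cells. UMIs were summed per library and class. Levels are UMIs per 1000000 UMIs of the class (UPM), with exact Poisson intervals that cover counting error only. Class differences were tested with edgeR 4.0.16 (quasi-likelihood, TMM, filterByExpr, library as a block, adjusted p under 0.05), and with DESeq2 1.42.0 as an alternative. The edgeR test was also run on simulated counts. There all classes shared the same mean profile, apart from a known change in some genes of monocyte/macrophage-like cells. The real classes differ in many genes, so the simulation does not test the choice of scaling. The same animals gave all classes of a library. With the library as a block, p-values measure how class differences vary between the 4 pooled libraries. This spread was shared over all named classes in 1 fit, and the osteoclast-like class came from 3 libraries. Library ratios were taken on log2(UPM + 5) for genes with at least 30 UMIs in the 2 libraries, with 1.5-fold as the limit for a count.

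The members, lists and tests were chosen with earlier results of these data known. Genes were named by rule: the member with most UMIs per complex, the 10 widest over classes, tissue isoforms, the 3 highest and 3 lowest per class contrast, the 2 highest and 2 lowest per library comparison and the leading genes of other lists. Other members named were chosen after their values were seen. Members with near-identical pseudogene copies may have lost or gained reads in counting. Coordinates of promoters are of GRCm38.p6 and were not joined to the counts. Clusters without a clear name were left out of all comparisons between classes.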

Additional observations from a re-analysis of the deposited data

Results flagged for a closer look

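The member median in CD40plusCTLA4 against PD1plusCTLA4 lay above 0 in 6 immune classes and below 0 in tumour-like cells. It was 0.17 in T-like cells, 0.11 in regulatory T-like cells, 0.32 in NK-like cells, 0.11 in mature dendritic cells, 0.26 in monocyte/macrophage-like cells and 0.11 in neutrophil-like cells, against -0.07 in tumour-like cells (log2 of UPM + 5). This difference between classes was not tested, because each treatment is 1 library, and regulatory T-like cells are part of the T-like class. With trimmed-mean scaling the tumour median became 0.08.

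Cells in clusters without a clear name, which enter no comparison, also held members above the floor. Their members took 3.16% of UMIs in PBS, 2.87% in PD1plusCTLA4, 3.62% in PD1plusCD40, 3.47% in CD40plusCTLA4 and 3.14% in Triplet. These pooled shares lie between those of neutrophil-like cells and osteoclast-like phagocytes, but single clusters differed. That led by Col3a1 and Col1a2 stood at 4.61% in PD1plusCD40 (73 cells), 4.35% in CD40plusCTLA4 (52) and 3.78% in PD1plusCTLA4 (1082). The cluster led by the osteoclast markers Ctsk and Acp5 stood at 3.82% in PD1plusCD40 (1852 cells) and 3.76% in CD40plusCTLA4 (2680). Both values lie below the named osteoclast-like class, and the medians were 1001 and 1299 UMIs per cell.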

How the results depend on the processing

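No paired analysis was possible because each group is 1 library with no replicate number, and the library is already a block in the class contrasts. Of the alternative values for summary results, 279 stayed the same, 33 moved by more than 1.5 times or beyond the interval of the median and 1 reversed, the tumour-like median of CD40plusCTLA4 against PD1plusCTLA4. Of 185 alternative library medians, 7 had another sign than the reported value, 4 of them for a median that lay at 0.00. Of the calls on named members 3370 stayed the same, 203 were lost and 133 gained. In monocyte/macrophage-like against T-like cells the count of lower members was 1 with DESeq2, median-ratio factors, class totals, only the 2 classes or a 20% mitochondrial limit. In tumour-like against T-like cells the count of lower members was 12 with a 5% mitochondrial limit or with members and mitochondrially encoded genes left in for clustering. In tumour-like against monocyte/macrophage-like cells 21 members were higher with DESeq2, 18 with median-ratio factors and 30 with class totals, which gave 28 lower. For osteoclast-like phagocytes the higher count fell to 38 with the 5% limit. The lower count was 0 with DESeq2, with members and mitochondrially encoded genes left in, or with doublets kept. It was 2 with no filter or only the 2 classes. Leaving out 1 library gave 54 to 67 higher and 0 lower members (monocyte/macrophage against T), 30 to 32 and 20 (tumour against T), 8 to 9 and 39 to 50 (tumour against monocyte/macrophage) and 39 to 55 and 0 to 1 (osteoclast-like). Trimmed-mean scaling moved the library medians against PD1plusCTLA4 to 0.35 (T-like), 0.48 (monocyte/macrophage-like) and 0.24 (tumour-like) in PD1plusCD40 and to 0.26, 0.47 and 0.080 in CD40plusCTLA4. It moved Triplet against PD1plusCD40 to -0.25, -0.26 and -0.16, and Triplet against CD40plusCTLA4 to -0.22 (monocyte/macrophage-like) and -0.083 (tumour-like). Leaving ribosomal and mitochondrial UMIs out of the total gave 0.11 for tumour-like cells of PD1plusCD40. With the 5% limit, osteoclast-like medians of Triplet were -0.037 against PD1plusCD40 and -0.13 against CD40plusCTLA4. The cause of each move was not tested. Depth limits low members: Cox6b2 in tumour-like cells rests on 0 to 16 UMIs per library.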

Other observations

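Neutrophil-like cells held the lowest summed level of nuclear members, while their level of the subunits encoded in mitochondrial DNA was mostly above that of T-like cells. In PD1plusCTLA4, PD1plusCD40, CD40plusCTLA4 and Triplet the 13 mitochondrially encoded subunits summed to 35869, 13143, 27689 and 32263 UPM in neutrophil-like cells, and the 81 members to 13349, 14949, 14473 and 13970 UPM. In T-like cells the mitochondrially encoded subunits stood at 22694, 18505, 18872 and 24653 UPM and the members at 25769, 31329, 28758 and 27788. The mitochondrially encoded sum was thus higher in neutrophil-like than in T-like cells in 3 of 4 libraries, while the members' sum was lower in all 4. In every treated library the mitochondrially encoded sum of neutrophil-like cells lay below that of tumour-like cells. It was near or below that of monocyte/macrophage-like cells. In PBS the sums in neutrophil-like cells were 20475 and 10043 UPM. Cells over 10% mitochondrial UMIs had been left out, which limits these levels from above, and the difference was not tested.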
